A study of Mus musculus with 8 samples.

Results

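The genes described here are the adult globins and 4 genes of the red-cell membrane skeleton, 8 genes in all out of 47493 in the expression table. They were picked by name, as Hba-a1, Hba-a2, Hbb-bs, Hbb-bt, Slc4a1, Sptb, Ank1 and Epb42, and all 8 reached an average of 1 FPKM over the libraries, the level from which 12166 genes were tested. FPKM corrects the number of fragments of a gene for the length of its transcript and the depth of its library, so levels of different genes can be compared on it. They were measured by RNA sequencing in 8 libraries from 4 female C57BL/6 mice, aged 6 to 8 weeks at the start. Each mouse carried B16-F10 melanoma cells (200000, injected on day 0), and received cyclophosphamide (300 mg/kg, day 3), Thy1.1+ Pmel-1 cells (2000000, day 5), which are CD8+ T cells with a transgenic receptor for the melanoma antigen gp100, human IL-2 (10000 IU daily for 3 days from day 5), and the anti-CD4 antibody GK1.5 (200 μg weekly for 3 weeks from day 10). On day 25, lymph node and spleen cells were treated with a red-cell lysis buffer, and Thy1.1-negative CD8+ T cells, the endogenous (en-T) cells of the host, were isolated with beads. Cells that an IL-18Rα antibody held on a second column formed the IL-18Rαhi-enriched fraction, and cells that ran through formed the flow-through, with 1 library of each from every mouse (n = 4 per fraction). The same treatments were given to all 4 mice, so the comparison is between fractions of treated animals, and cells were separated by beads, which leaves other cells in both fractions.

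Hemoglobin is built from α and β globin chains around heme and carries oxygen. The red cell keeps its shape through a mesh of spectrin under the membrane, where β-spectrin (Sptb) binds ankyrin-1 (Ank1), ankyrin-1 binds the anion exchanger band 3 (Slc4a1), and Epb42 stabilizes the contact of band 3 with ankyrin. Erythroid cells turn these genes on as they mature, the mouse spleen makes red cells when demand is high, and young red cells keep globin mRNA for a time after losing the nucleus.

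The globin genes form near-identical pairs, and their sequences are shown because they limit which gene of a pair a read can be given to. In mm10, the Hba-a1 gene lies on chromosome 11 at chr11:32283511-32284465 and Hba-a2 at chr11:32296489-32297298, both on the plus strand. On chromosome 7, Hbb-bs lies at chr7:103826534-103828096 and Hbb-bt at chr7:103812524-103813996, both on the minus strand. Positions are counted from the first base of the start codon. The coding sequences of Hba-a1 and Hba-a2 (429 bases) differed by 1 base, C381T in codon 127, and those of Hbb-bs and Hbb-bt (444 bases) by 1 base, C417T in codon 139. Neither difference changed the protein. Of all 150-base stretches of the Hba-a1 transcript, 48.4% also occurred in that of Hba-a2, and the share was 65.7% the other way, whereas for Hbb-bs and Hbb-bt the shares were 58.7% and 50.7%. The value of a single gene within a pair is therefore uncertain, and the sum of the pair is the safer measure. The stretches around the differing base, which is in capitals, cover coding bases 351 to 410 for the α genes and 385 to 444 for the β genes (GENCODE M21 transcripts).
Hba-a1: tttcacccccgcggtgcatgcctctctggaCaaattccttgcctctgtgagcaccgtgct
Hba-a2: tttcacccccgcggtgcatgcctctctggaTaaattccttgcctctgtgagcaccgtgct
Hbb-bs: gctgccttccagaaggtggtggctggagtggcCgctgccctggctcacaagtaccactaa
Hbb-bt: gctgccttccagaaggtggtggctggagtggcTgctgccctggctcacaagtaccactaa

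The start sites were less alike in the β pair than in the α pair. RefSeq (GRCm38.p6) promoter entries matched 6 of the 8 genes, Ank1 and Slc4a1 being without one. Over the 250 bases upstream of the start, Hba-a1 and Hba-a2 were identical at 97.6% of aligned positions and Hbb-bs and Hbb-bt at 70.9%. The 30 bases around the TATA box, in capitals, are shown for the 4 globins, at chr11:32283632-32283661 and chr11:32296449-32296478 on the plus strand and at chr7:103827941-103827970 and chr7:103813935-103813964 on the minus strand.
Hba-a1: cccttggagggcaTATAAgtgctacttgct
Hba-a2: cccttggagggcaTATAAgtgctacttgct
Hbb-bs: ccagggcagagcaTATAAggtgaggtagga
Hbb-bt: ccagcattgggtaTATAAagctgagcaggg
The letters TATAA began 27 to 30 bases upstream of the RefSeq start in these 4 genes. The GENCODE gene bounds given above begin earlier for Hba-a1, Hbb-bs and Hbb-bt, so that these stretches lie inside them. The letters CCAAT were found in all 4 upstream windows. Both strands were searched, and the shares of all 32851 promoters with the same letters in these 250 bases were 22.785% for the TATA box and 33.85% for the CCAAT box. The letters AGATAA, which GATA factors bind, were found upstream of Hbb-bs and Epb42 and in 9.988% of all promoters. A CACCC box (CCACCC) was found upstream of Hba-a1, Hba-a2, Hbb-bt and Sptb, and in 28.075% of all promoters. These matches describe letters only.

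The 4 skeleton genes lie apart from one another, and 2 of them overlap other genes. Slc4a1 is at chr11:102348824-102366203 on the minus strand and Epb42 at chr2:121017891-121037072 on the minus strand. Sptb, at chr12:76580488-76710547 on the minus strand, overlaps the protein-coding Plekhg3 on the plus strand. Ank1, at chr8:22974844-23150497 on the plus strand, holds the microRNA gene Mir486 and an antisense transcript. The sources used here do not state that strand was used in counting, so fragments from opposite strands cannot be told apart in Sptb and Ank1.

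The libraries were of similar depth, with an estimated 14700000 to 17700000 fragments. CD8 T-cell markers were high in every library. The summed FPKM of 8 such markers (the CD3 chains, Cd8a, Cd8b1, Lck and Cd2) was 1337 in the flow-through of mouse 1, against 2144 to 2548 in the other flow-through libraries and 2542 to 2724 in the enriched ones, so the flow-through of mouse 1 stood apart. Early erythroid genes were abundant beside them. Car1, carbonic anhydrase of erythroid cells, was at 609.3 to 1359 FPKM in flow-through libraries and at 84.2 to 248 FPKM in enriched ones. In RNA from whole fractions, fewer cells of a type and less RNA per cell cannot be told apart.

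Most members varied far more between mice than between fractions, with the smallest gap for Ank1. Mouse 1 was highest and mouse 3 next in 15 of 16 sets of a gene and a fraction, the exception being Hbb-bt in the flow-through, where mouse 3 lay above mouse 1. The highest library was 3.32 to 10.8 times the lowest within the flow-through and 5.49 to 10.6 times within the enriched fraction. For all 8 genes the libraries of the fractions overlapped, whereas over all genes tested 15.9% were lower in the enriched fraction with no overlap. Comparing the fractions of the same mouse, 6 of 8 genes were lower in the enriched library in 4 of 4 mice, an outcome seen in 30.6% of all genes tested. The other two, Hba-a2 and Hbb-bt, were lower in 3 mice and higher in mouse 1.

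**Figure D1:**
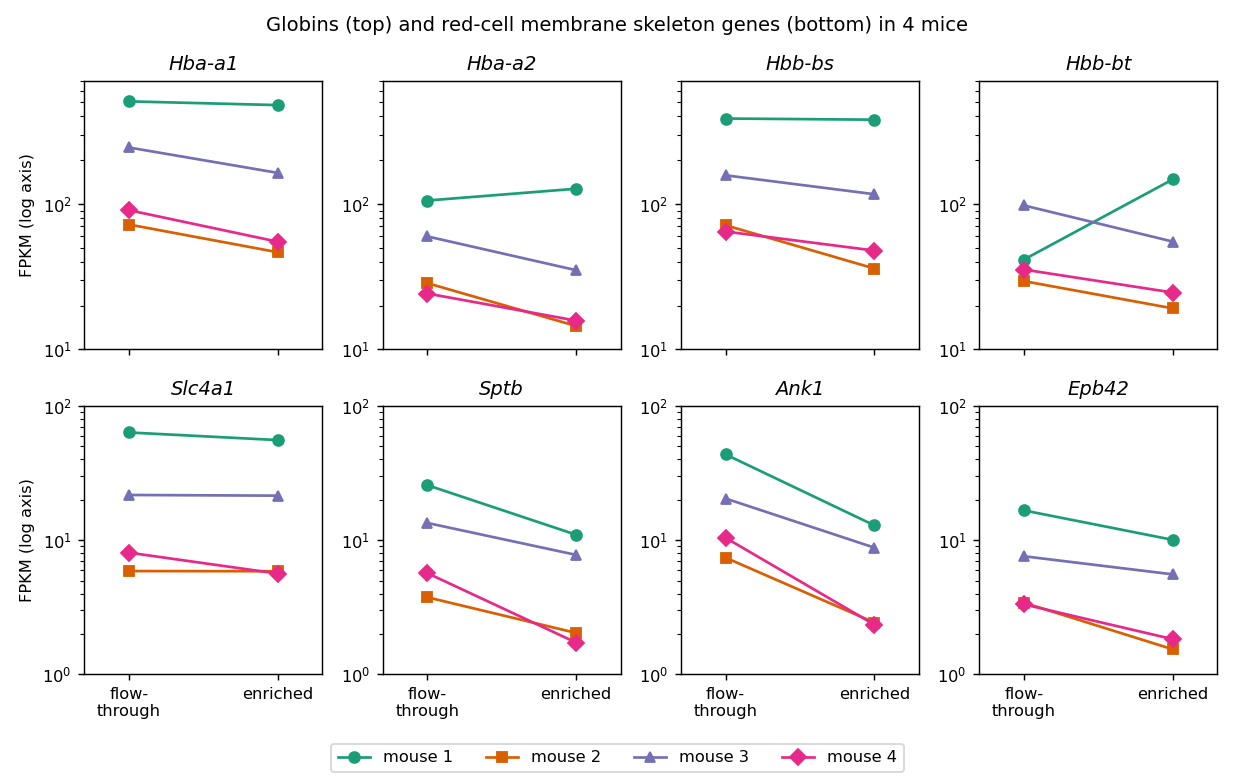
FPKM (log axis) of the 4 globins (top) and the 4 skeleton genes (bottom) in the flow-through and the IL-18Rαhi-enriched library of each mouse, with 1 line per mouse. The lines are stacked in the same order in nearly every panel, with mouse 1 on top and mice 2 and 4 lowest, and slope down most for Ank1 and hardly for Slc4a1.

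Hba-a1, the more abundant α gene, was at 507.3, 72.2, 244.4 and 90.6 FPKM in the flow-through of mice 1 to 4 and at 478.3, 46.5, 163.5 and 55.0 FPKM in the enriched fraction. Mice 1 and 3 were high and mice 2 and 4 low in both fractions, and the enriched library was the lower in every mouse. Hba-a2 was at 105.5, 28.5, 59.8 and 24.2 FPKM in flow-through libraries and at 127.2, 14.5, 35.0 and 15.8 FPKM in enriched ones. The same mice were high, and the enriched library of mouse 1 was 1.21 times its flow-through. Added together, the α genes were at 612.8, 100.7, 304.3 and 114.8 FPKM in flow-through libraries and at 605.4, 61.0, 198.5 and 70.7 FPKM in enriched ones, so that the enriched library held 0.988 times the flow-through in mouse 1 and 0.606 to 0.652 times in the other mice.

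Hbb-bs, the more abundant β gene, was at 386.6, 71.4, 157.3 and 64.6 FPKM in flow-through libraries and at 379.6, 35.9, 116.6 and 47.8 FPKM in enriched ones. It followed the order of the α genes, and its fractions differed least in mouse 1. Hbb-bt was at 41.4, 29.5, 97.7 and 35.4 FPKM in flow-through libraries and at 147.6, 19.1, 55.1 and 24.6 FPKM in enriched ones. Its flow-through value in mouse 1 was near those of the low mice, and the enriched library of that mouse was 3.56 times as high, whereas the other mice were at 0.564 to 0.695 times. In the sum of the β genes, mouse 1 was again higher in the enriched library (527.2 against 428.0 FPKM, 1.23 times), and the other mice held 0.546 to 0.724 times their flow-through.

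The skeleton genes had lower means than the globins and kept the order of the mice. Slc4a1 was at 63.6, 5.89, 21.7 and 8.08 FPKM in flow-through libraries and at 55.8, 5.87, 21.5 and 5.64 FPKM in enriched ones. Its fractions were thus nearly level within mice 2 and 3, and the ratio of enriched to flow-through was lowest in mouse 4, at 0.698. Ank1 was at 43.6, 7.41, 20.5 and 10.4 FPKM in flow-through libraries and at 12.9, 2.43, 8.80 and 2.35 FPKM in enriched ones. Every enriched library held between 0.225 and 0.430 times the Ank1 of its flow-through partner.

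Sptb was at 25.8, 3.76, 13.5 and 5.69 FPKM in flow-through libraries and at 11.0, 2.04, 7.78 and 1.73 FPKM in enriched ones. Epb42 was the least abundant member, at 16.7, 3.42, 7.60 and 3.33 FPKM in flow-through libraries and at 10.1, 1.54, 5.57 and 1.83 FPKM in enriched ones. For both genes the enriched library was the lower in all 4 mice, at 0.303 to 0.578 times for Sptb and 0.449 to 0.733 times for Epb42.

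To set the size of these differences against the replicate error, the fractions were compared with limma on log2(FPKM + 1), first as 4 against 4 libraries and then with the mouse as a replicate block. Without the block, none of the 8 genes passed an adjusted p of 0.05, against 13.7% of all genes tested that were called lower and 14.1% called higher. Ank1 was the 1 member with an unadjusted p under 0.05 by limma, and 21.3% of all genes tested were lower at that level. With the block, 5 of 8 members were called lower and 0 higher, where 22.7% of all genes were called lower and 22.2% higher. The labels give a fraction and a number for each library, and libraries with the same number were paired. The paper states that both fractions came from the same treated CD8+ T cells, with 4 mice per group. That a number stands for 1 mouse was inferred, and same-numbered libraries deviated together.

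Ank1 had the largest difference, a log2 fold change of -1.47 with an SE of 0.63 without the block (limma adjusted p = 0.114) and of 0.12 with it (limma adjusted p = 0.000414). For Sptb the log2 fold change was -0.96, with an SE of 0.65 without the block (limma adjusted p = 0.301) and 0.13 with it (limma adjusted p = 0.00197). For Epb42 it was -0.62, with an SE of 0.59 without the block (limma adjusted p = 0.458) and 0.098 with it (limma adjusted p = 0.0034). These 3 genes, whose proteins lie on the inner face of the membrane, thus fell within mice. Slc4a1, the exchanger that spans the membrane, had a log2 fold change of -0.16 (blocked SE 0.095, limma adjusted p = 0.199; 0.905 without the block), with a blocked 95% interval from -0.39 to 0.06. The intervals of Ank1 (-1.77 to -1.17), Sptb (-1.27 to -0.64) and Epb42 (-0.85 to -0.38) lay below 0.

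Among the globins, Hba-a1 fell by 0.50 on the log2 scale (SE 0.85 without the block, limma adjusted p = 0.686; SE 0.11 with it, limma adjusted p = 0.011). Hbb-bs fell by 0.46 (SE 0.81 without the block, limma adjusted p = 0.695; SE 0.14 with it, limma adjusted p = 0.0354). Hba-a2 did not pass either test, at -0.50 (limma adjusted p = 0.627 without the block and 0.0669 with it). Hbb-bt did not pass either, at -0.03, with a blocked 95% interval from -1.02 to 0.97 (limma adjusted p = 0.979 without the block and 0.963 with it). That interval is the widest of the 8 and holds differences of either sign as large as that of Sptb.

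Which members were called within mice depended on single mice. Without mouse 1, whose flow-through had the low T-cell marker sum, 7 of 8 members were lower and 0 higher (20.3% of all genes were called lower and 20.7% higher in that fit), since Hba-a2 reached -0.76 (limma adjusted p = 0.00152) and Hbb-bt -0.64 (limma adjusted p = 0.00217), and only Slc4a1 did not pass, at -0.16 (limma adjusted p = 0.309). Without mouse 2, 4 members were lower (19.7% of all genes tested). Without mouse 3 or mouse 4, 3 members were lower, Ank1, Sptb and Epb42, where 14.1% and 15.6% of all genes were called lower. Hba-a1 did not pass without mouse 3 (limma adjusted p = 0.0505) or without mouse 4 (limma adjusted p = 0.0547). Hbb-bs did not pass without mouse 2, 3 or 4 (limma adjusted p = 0.0712, 0.0946 and 0.099), with a log2 fold change of -0.29 without mouse 2. The part of the T-cell content of mouse 1 in the members' values was not tested, beyond these values with and without it.

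**Figure D2:**
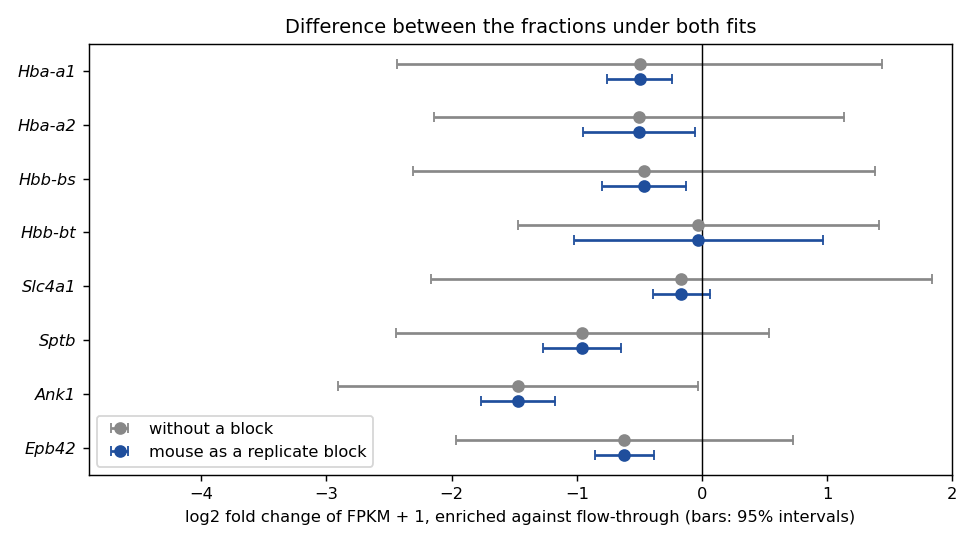
Log2 fold change of FPKM + 1 between the enriched and flow-through fractions for each gene, with 95% intervals from limma without a block (grey) and with the mouse as a replicate block (blue), n = 4 mice. Estimates are the same in both fits, and the blocked intervals of Ank1, Sptb, Epb42, Hba-a1, Hba-a2 and Hbb-bs lie below 0, where Hba-a2 does not pass after adjustment over all genes.

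Most of the variation of the members lay between mice. With more mice than fractions, the share between mice tends to be larger by design, for all genes alike. Of the sum of squares of log2(FPKM + 1) over the 8 libraries, differences between mice held 99.1% for Slc4a1, 95.2% for Hba-a1, 94.3% for Hbb-bs, 90.0% for Hba-a2 and 87.7% for Epb42. They held 78.2% for Sptb, 66.4% for Hbb-bt and 59.6% for Ank1. For the first 5 of these genes the share exceeded 80%, as it did in 10.0% of all genes tested, for which the median share was 38.6%. Differences between fractions held 39.1% for Ank1, 20.1% for Sptb, 11.6% for Epb42 and at most 5.44% for the other 5 members, against a median of 37.3% over all genes.

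**Figure D3:**
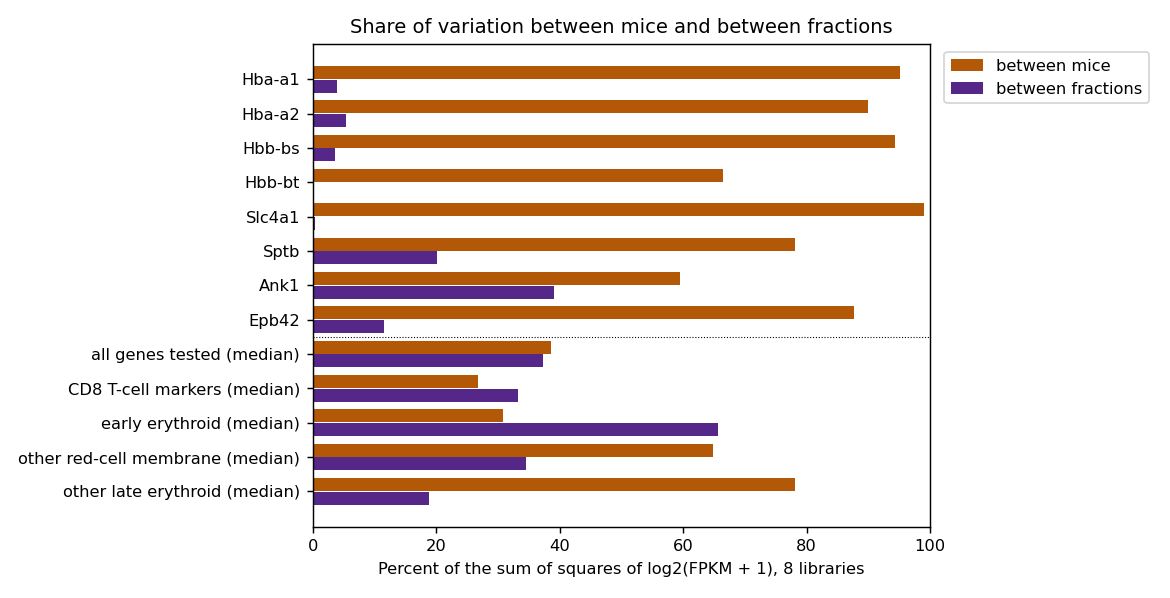
Percent of the sum of squares of log2(FPKM + 1) over 8 libraries that lies between mice (orange) and between fractions (purple), for each member and as the median of all genes and of 4 gene lists. Bars of the members are mostly orange, while early erythroid genes have a median of 65.6% between fractions and 30.8% between mice.

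Ratios between members do not depend on how a library is scaled. Whether other cells gave part of the members' fragments, so that the ratios change with the amount of erythroid RNA, was not tested. The ratios were compared between the fractions with a two-sided exact permutation test (70 ways to split the 8 libraries, 7 ratios tested). This test did not pair the libraries by mouse. The exact permutation test that flips signs within mice has too few arrangements with 4 mice to reach 0.05, so it could not decide. The share of Hba-a1 in the α pair was 0.784 ± 0.0478 (SD, n = 4) among flow-through libraries and 0.788 ± 0.0260 (SD, n = 4) among enriched ones (exact p = 0.943, adjusted p = 0.943). The share of Hbb-bs in the β pair was 0.719 ± 0.129 and 0.678 ± 0.0302 (exact p = 0.8, adjusted p = 0.933). The summed α genes stood at 0.977 to 1.43 times the summed β genes, and their log2 ratio was 0.243 ± 0.214 among flow-through libraries and 0.131 ± 0.113 among enriched ones (exact p = 0.371, adjusted p = 0.52). No difference in the make-up of the globins was thus detectable by the unpaired test with 4 mice. The 4 globins together took 0.0166% to 0.172% of the summed FPKM of a library.

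One library departed from the others in how the β pair was divided. Hbb-bs was 9.33 times Hbb-bt in the flow-through of mouse 1 and 1.61 to 2.57 times in the other 7 libraries. The corresponding α ratio of that library, 4.81, was also the highest, but near the 2.53 to 4.67 of the others. As the β genes differ by 1 coding base, how Cufflinks divided shared fragments between them was not tested here, and the summed β genes of this library (428.0 FPKM) kept its place as the highest in the flow-through.

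The skeleton genes were also taken relative to the summed globins. Ank1 was at 4.19, 3.68, 3.66 and 4.85 FPKM per 100 FPKM of globin in flow-through libraries and at 1.14 to 2.38 in enriched ones. All enriched libraries lay below all flow-through libraries, and on the log2 scale the difference was -1.22 (exact p = 0.0286, the smallest possible, adjusted p = 0.133). Sptb per 100 FPKM of globin was at 2.35 ± 0.339 (SD, n = 4) in flow-through libraries and at 1.51 ± 0.514 (SD, n = 4) in enriched ones, lower in 4 of 4 mice (log2 difference -0.69, exact p = 0.0571, adjusted p = 0.133). Epb42 was lower in 3 of 4 mice, by -0.33 on the log2 scale (exact p = 0.0571, adjusted p = 0.133). Slc4a1 was higher in 3 of 4 mice, by 0.28 (exact p = 0.314, adjusted p = 0.52). None of the 7 ratios passed after adjustment. A ratio at the smallest possible p could not pass unless several of the others reached that p too. This outcome therefore does not show that the fractions were alike.

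The skeleton genes differed from one another within mice in a steady order. The log2 change of Ank1 lay below that of Slc4a1 by -1.57, -1.60, -1.20 and -1.63 in mice 1 to 4, with a mean of -1.50 ± 0.202 (SD, n = 4). Sptb lay below Slc4a1 by -0.97 ± 0.187 and Ank1 below Sptb by -0.53 ± 0.139, each in 4 of 4 mice. Sptb and Epb42 were not so ordered, at -0.36 ± 0.471, with Sptb the higher in mouse 2. These differences on log2 FPKM were computed after the values were known and carry no test.

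**Figure D4:**
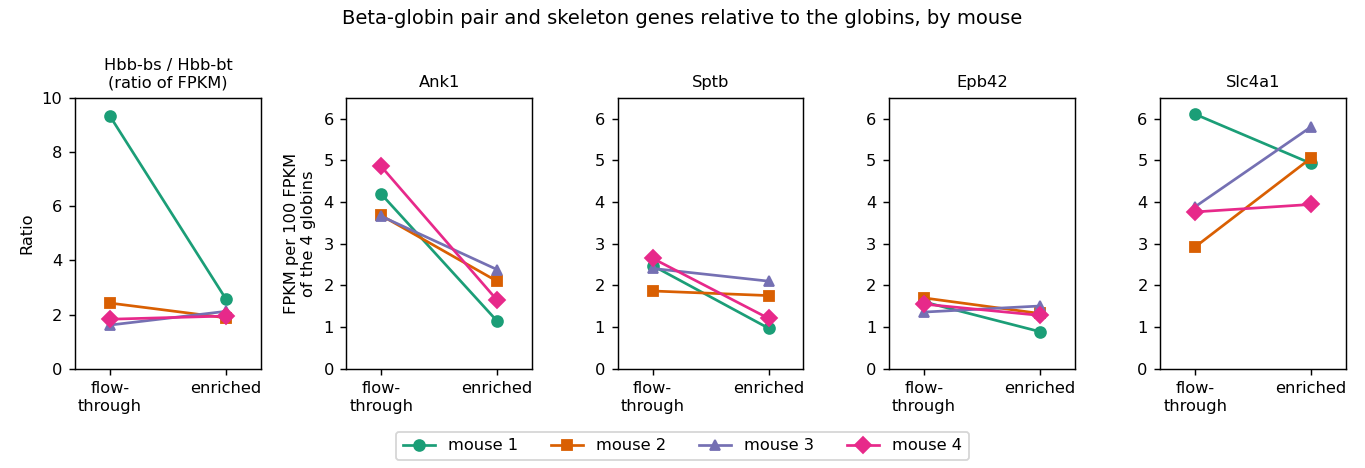
Ratio of Hbb-bs to Hbb-bt (left) and FPKM of each skeleton gene per 100 FPKM of the 4 globins, in the flow-through and enriched library of each mouse (1 line per mouse). The flow-through of mouse 1 stands alone at a β ratio of 9.33, and Ank1 is the gene whose fractions do not overlap.

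The members were next set beside other genes of the same structures. Other globin genes were close to absent. None of 10 in the table, which include the embryonic Hba-x, Hbb-bh1 and Hbb-y, myoglobin (Mb), neuroglobin (Ngb) and cytoglobin (Cygb), reached the mean of 1 FPKM, and 5 of them were listed at 0 in all 8 libraries. Hbq1b, a θ globin, was the highest at 1.40 FPKM in the flow-through of mouse 1.

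Of 12 other red-cell membrane genes, 11 were tested and all 11 were lower within mice, with a median log2 fold change of -1.33. Among all genes tested, 22.7% were lower in that fit, and 13.7% without the block. With the block and scaling to T-cell markers, all 11 were again lower (18.2% of all genes tested). Without the block 2 were lower, and 0 when scaling to T-cell markers or to non-globin totals was added. The 2 were Aqp1, the water channel (-1.90, limma adjusted p = 0.0456 without the block), and Ermap, an erythroid surface protein (-1.90, limma adjusted p = 0.0438 without the block). The ammonia channel Rhag, which sits in the membrane with band 3, was at 100.1, 16.7, 48.6 and 20.9 FPKM in flow-through libraries and at 35.4, 4.69, 19.3 and 5.39 FPKM in enriched ones, a log2 fold change of -1.55 (limma adjusted p = 0.000212 with the block and 0.146 without). Mouse 1 was highest and mouse 3 next in both fractions, as for most of the members. Dmtn, which bundles actin at the spectrin junctions, fell within mice (-0.44, limma adjusted p = 0.0214 with the block and 0.61 without). With the block but without mouse 1, Dmtn did not pass (-0.38, limma adjusted p = 0.0702). Add2, the erythroid β-adducin at the same junctions, fell by 1.72 (limma adjusted p = 0.000402 with the block and 0.0721 without).

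Skeleton and membrane genes that many cell types use moved in both directions. Of 10 such genes, 5 were lower and 2 higher within mice, with a median of -0.11. Among all genes tested, 22.7% were lower and 22.2% higher in that fit. With the block and scaling to T-cell markers, 3 were lower and 1 higher. Without the block 2 were lower and 2 higher, where all genes gave 13.7% and 14.1%, and that scaling left none past the threshold. The higher ones were Actb, β-actin (0.82, limma adjusted p = 0.00135 without the block), and Tpm3, a tropomyosin (0.48, limma adjusted p = 0.0272). Of 7 relatives of the skeleton members, 5 were tested. Sptan1, the α-spectrin of non-erythroid cells, was at 21.7 to 39.1 FPKM in flow-through libraries and at 45.6 to 57.5 FPKM in enriched ones, a log2 fold change of 0.71 (limma adjusted p = 0.0182 without the block and 0.00343 with it). Slc4a7, a bicarbonate transporter, rose by 0.49 (limma adjusted p = 0.0078 without the block). Tgm2, a transglutaminase of the family of Epb42, was lower within mice only (-0.57, limma adjusted p = 0.0191 with the block and 0.179 without). Ank2 and Ank3, the other ankyrins, were below 1 FPKM. For Sptan1 and Slc4a7 no library of the enriched fraction fell into the range of the flow-through, a direction opposite to that of Sptb, although neither passed the threshold under scaling to the T-cell markers.

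Genes of erythroid maturation were placed around the members. Of 9 other late genes tested, 7 were lower within mice and 2 without the block, with a median of -0.80. The shares of all genes tested were 22.7% and 13.7%. Alas2, the erythroid enzyme that starts heme synthesis, was at 13.7, 2.63, 7.18 and 2.20 FPKM in flow-through libraries and at 13.8, 1.27, 6.25 and 2.25 FPKM in enriched ones. Its difference of -0.21 did not pass (limma adjusted p = 0.254 with the block and 0.838 without), and its fractions were nearly equal within mice 1 and 4, as those of Slc4a1 were within mice 2 and 3. The last enzyme of heme synthesis, Fech, fell by 0.80 (limma adjusted p = 0.000496 with the block and 0.186 without).

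Of 13 early erythroid and progenitor genes, all 13 were lower within mice and 11 without the block, with a median of -1.85. The shares of all genes tested were 22.7% and 13.7%. The summed level of the 13 genes was 1075 to 2543 FPKM in flow-through libraries, highest in mouse 1 and next in mouse 3, and 238.9 to 611.0 FPKM in enriched ones. Gata1, the erythroid master regulator, fell by 1.95 (limma adjusted p = 0.0251 without the block and 0.000243 with it), Epor, the erythropoietin receptor, by 1.95 (limma adjusted p = 0.0448 without the block), and Car1 fell by 2.61 (limma adjusted p = 0.00302 without the block). The smallest of the 13 changes was -0.82, for Gata2, so that Ank1 and Sptb lay within the range of this list and the other 6 members lay above it. The median share of variation between mice was 30.8% for the early genes, 64.9% for the other membrane genes, 78.1% for the other late genes and 88.9% for the members. It was also high for markers outside the red-cell line, at 81.4% for the myeloid, 79.5% for the B-cell and 76.4% for the neutrophil and granulocyte markers.

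**Figure D5:**
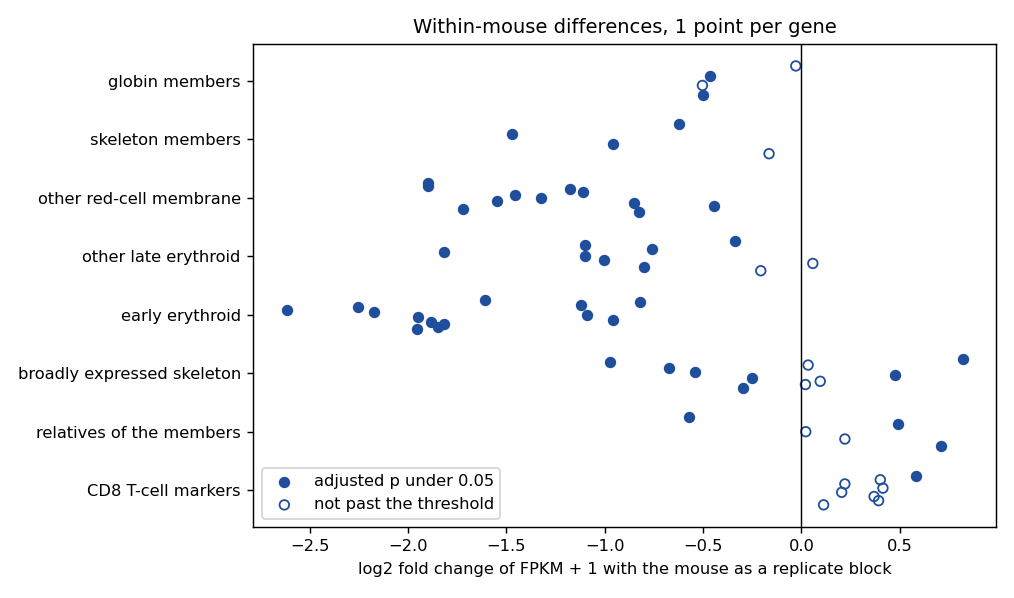
Log2 fold change of FPKM + 1 with the mouse as a replicate block, 1 point per gene, for the members and for 6 other gene lists, filled where the limma adjusted p was under 0.05. Early erythroid genes lie from -2.61 to -0.82, the skeleton members from -1.47 to -0.16 and the globins from -0.50 to -0.03.

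Markers of other cells were read alongside. Over all genes tested, 13.7% were lower and 14.1% higher without the block, and 22.7% and 22.2% with it. Of 8 CD8 T-cell markers, 0 passed without the block and 1, Cd2, was higher with it, with a median log2 fold change of 0.38. Without mouse 1 the blocked median was 0.17, and 3 of the 8 were below 0. Of 6 NK-cell markers, 4 were higher without the block and 5 with it, and their sum was 91.0 to 259.4 FPKM in flow-through libraries and 238.9 to 496.3 FPKM in enriched ones. Of 5 myeloid markers, 2 were higher without the block and 4 with it (sums of 112.0 to 404.7 and 361.5 to 887.0 FPKM). Of 7 neutrophil and granulocyte markers, 2 were higher and 1 lower with the block, and their sum was 392.4, 2267, 785.5 and 1118 FPKM in the flow-through of mice 1 to 4, and 420.7, 2706, 768.2 and 1188 FPKM in the enriched libraries. Mouse 1, highest in globin, had the lowest sum and mouse 2 the highest in both fractions, with Elane and Mpo making up most of it. In the flow-through, Ltf, S100a9, Ngp and Camp were highest in mouse 3 (S100a9 at 66.4, Ngp at 25.0 and Camp at 10.8 FPKM). S100a8 was highest in mouse 2 of that fraction (95.3 FPKM). In the enriched fraction S100a8, S100a9, Ngp and Camp were highest in mouse 2 (S100a9 at 254.5, Ngp at 14.1 and Camp at 18.6 FPKM). Ltf was highest in mouse 3 there (3.09 FPKM). Of 5 B-cell markers 2 were higher with the block (sums of 24.4 to 62.9 and 40.4 to 81.9 FPKM), and of 4 platelet markers 2 were lower (sums of 17.4 to 25.4 and 14.2 to 21.3 FPKM). No marker of these lists was at 0 in any library. When the libraries were scaled to the T-cell markers, the median of all genes shifted to -0.32, and 522 genes were higher and 929 lower in place of 1720 and 1664. Ank1 was then at -1.78, Hba-a1 at -0.84 and Slc4a1 at -0.49, and their differences from that median were close to those without the scaling. With the block and this scaling, 6 members were lower, Hba-a2 (-0.84, limma adjusted p = 0.0121) being the addition, against 18.2% of all genes called lower in that fit. The part of other cell types in the members' levels was not tested.

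The genes whose levels over the 8 libraries were most like those of the members were sought among 9056 genes averaging 5 FPKM or more, on log2(FPKM + 1). Libraries of the same mouse share the animal, so the 8 points are not independent and the values are descriptions. Among the genes that followed the summed globins most closely were Alas2 (Pearson's r = 0.987, Spearman's rho = 0.929), the ubiquitin ligase gene Trim10 (r = 0.981, rho = 0.976), the mitochondrial iron importer Slc25a37 (r = 0.973, rho = 0.976) and Pcmt1 (r = 0.969, rho = 0.976). Without both libraries of mouse 1, the farthest from the median, r was 0.962 for Alas2, 0.984 for Trim10 and 0.924 for Pcmt1. Pcmt1, a protein repair enzyme of many tissues, ranged only from 42.1 to 57.3 FPKM, so it shared the order and not the size of the differences. The mean of the skeleton genes was followed most closely by Btnl10 and Sec14l2 (both r = 0.998, rho = 0.976), then Cldn13, Hemgn and the heme-synthesis gene Uros (r = 0.994, rho = 0.976 for each). Between the members themselves, r ranged from 0.580 to 0.991 over the 28 pairs.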

How the data were processed

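Stranded poly(A) libraries of each fraction were read from both ends over 150 bases. The authors filtered reads for quality, mapped them to mm10 by TopHat, and ran Cufflinks 2.1.1 to obtain gene levels. The deposited values are FPKM, and the annotation release was not given in the sources used here. Cufflinks shares fragments between paralogs, which bears on both globin pairs. FPKM carries no exact depth, so depth was estimated from low genes (FPKM under 0.2) whose only transcript measured 1500 bases or more, and no counting interval is given.

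Groups and replicate numbers came from the labels. Genes averaging 1 FPKM or more were tested with limma 3.58.1 (R 4.3.3) on log2(FPKM + 1), a scale that understates changes of low genes, with a variance trend and Benjamini-Hochberg adjustment at 0.05, without a block, and with the mouse as a replicate block as the alternative. Fractions of the same number deviated together (correlations 0.660, 0.589, 0.308 and 0.471 for mice 1 to 4). Fractions of different numbers ranged from -0.600 to 0.412. That highest value, for flow-through 2 with enriched 4, lay above the same-number value of mouse 3. For each library, the partner of the same number gave the highest correlation. Ratios were compared by exact permutation of the 8 libraries, without pairing by mouse. The limma step was tested on simulated data. Coordinates came from GENCODE M21, which held 98.9% of the identifiers. Named genes were the members, genes of the lists, and the 5 genes most like each group. A few list genes are left unnamed but counted. Members and lists were chosen with earlier results of these data known. Fits combining the block with another setting were chosen after seeing the data. Other settings were pseudocount, filter, scaling, variance trend and left-out libraries.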

Additional observations from a re-analysis of the deposited data

How the results depend on the processing

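With the mouse as a replicate block, members past the threshold rose from 0 to 5, and all genes from 1720 to 2705 higher and from 1664 to 2763 lower. The calls gained were Hba-a1 (-0.50), Hbb-bs (-0.46), Sptb (-0.96), Ank1 (-1.47) and Epb42 (-0.62). T-cell scaling gave 522 higher and 929 lower. Leaving out 1 library without the block, members past the threshold stayed at 0, genes higher ranged from 1124 to 1802 and genes lower from 940 to 1781, with the low counts without the flow-through of mouse 3 or the enriched library of mouse 2 or 4. The log2 fold change ranged from -1.16 to 0.028 for Hba-a1 and from -1.13 to 0.060 for Hbb-bs, positive without the flow-through of mouse 1, from -0.60 to 0.36 for Hbb-bt, positive without the flow-through of mouse 3 or the enriched library of mouse 2 or 4, and from -0.79 to 0.47 for Slc4a1, positive without the flow-through of mouse 1 or the enriched library of mouse 2 or 4. The share of Hba-a1 in its pair differed by -0.0184 to 0.0187 and that of Hbb-bs by -0.0744 to 0.0211. The range was -1.15 to -0.11 for Hba-a2, -1.34 to -0.51 for Sptb, -1.85 to -1.02 for Ank1 and -1.02 to -0.20 for Epb42, each smallest without the flow-through of mouse 1. With the block and leaving out 1 mouse, 3 to 7 members were lower, against 14.1% to 20.3% of all genes. Blocked changes ranged from -0.64 to -0.43 for Hba-a1, from -0.76 to -0.36 for Hba-a2, from -0.61 to -0.29 for Hbb-bs and from -0.64 to 0.23 for Hbb-bt, positive without mouse 2, 3 or 4. The causes were not tested. With the block and T-cell scaling Hba-a2 was at -0.84 and passed. Of 120 member log2 fold changes under other settings without the block, 112 kept direction and call and 8 changed sign. Of 70 ratios, 67 kept direction and call and 3 changed sign. With 4 mice, the unpaired exact permutation tests could not go below p = 0.0286. The number of fragments behind levels near 2 FPKM is not known.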
